A study of Mus musculus with 8 samples.

Results

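The B7 family of costimulators and checkpoint ligands was examined as 9 genes: Cd80, Cd86, Icosl, Cd274, Pdcd1lg2 and Cd276 of the B7 family proper, the costimulator Cd83, and the inhibitory receptors Havcr2 (TIM-3) and Cd200r1. Members were found by matching the RefSeq accessions of the array table to gene symbols, and 8 of the 9 had a row, each exactly 1, among 24625 rows in all. No row was matched to Cd200r1, which was not analysed here. Messenger RNA was measured in lung neutrophils on 8 Affymetrix Mouse Gene 1.1 ST arrays, 4 of the PBS group and 4 of the SP group. The PBS group were wild type mice, C57BL/6J per the methods, that received phosphate-buffered saline through the trachea into the left lung. They were 6 to 12 weeks old per the labels, while the methods give a narrower range. The methods describe colonies generated from purchased female mice and sex-matched groups, without stating the sex of the mice used. The SP group were wild type mice of the same strain and ages. They received a suspension of Streptococcus pneumoniae, a bacterium that causes pneumonia, by the same route. The volume was the same, 2.3 µl per g of body weight. In both groups neutrophils were taken 24 h later from suspensions of digested lung with magnetic beads against Ly6G, a neutrophil surface protein, and nothing else separated the groups by label. The study describes each sample as coming from a single mouse, while the labels do not name the animals, and the p-values given here measure the spread between these samples. Per the study's methods, purity was examined on stained cytospins of pneumonia samples only. It was reported as high there, and the few other cells mostly looked like alveolar macrophages, rarely like eosinophils.

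T cells need a second signal besides antigen, and the B7 family supplies it. CD80 and CD86 on antigen presenting cells bind CD28, which promotes T cell activation, or CTLA-4, which restrains it, while ICOS ligand binds ICOS. PD-L1 and PD-L2, encoded by Cd274 and Pdcd1lg2, bind PD-1 and restrain T cells, and interferon gamma is a well known inducer of PD-L1 in myeloid and other cells. Dendritic cells and macrophages are the classical carriers of these proteins, and neutrophils acquire some of them during inflammation.

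Of the 8 genes, 5 were higher in SP and 3 did not pass the test with the values as deposited. The PD-1 ligands rose most, Cd274 by 14.2-fold and Pdcd1lg2 by 14.1-fold, followed by Havcr2 by 8.04-fold, Icosl by 4.82-fold and Cd86 by 2.69-fold. Cd80, Cd83 and Cd276 were not called, though Cd80 and Cd83 passed under some alternatives given beside their values. Each of the 5 had every SP array above every PBS array and passed an adjusted p of 0.05 in limma with a difference of at least 2-fold, while 0 were lower. Across all 24625 rows, 21.5% were called higher and 22.6% lower at that adjusted p, 6.37% were higher by at least 2-fold and 11.3% lower by at least 2-fold, and in 27.2% every SP array lay above every PBS array. The median difference of the 8 genes was 1.85 on the log2 scale, against 0.10 over all rows.

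Arrays were not equal within their groups. PBS replicate 2 was the lowest PBS array for 7 of the 8 genes, against 36.34% of all rows. SP replicate 3 was the lowest SP array for 6 of the 8, against 33.88% of all rows. Estimated array weights were 0.464 for PBS replicate 2 and 0.197 for SP replicate 3, the lowest of the 8, where the highest was 2.69. Array medians ran from 6.06 to 6.20 in PBS and from 5.79 to 5.91 in SP. Setting all medians equal adds 0.28 to every log2 difference, and the members that change their call with this step are named below.

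**Figure D1:**
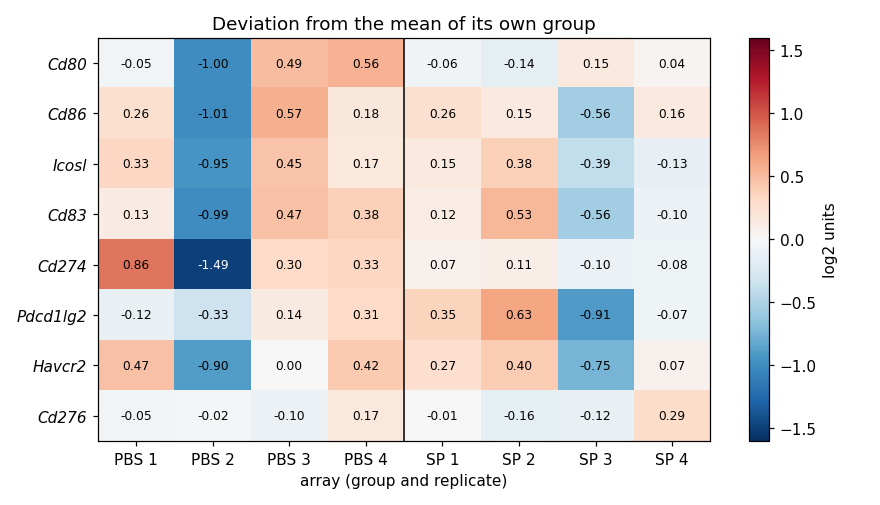
Deviation of each of the 8 genes on each array from the mean of its own group, in log2 units, for the 4 PBS arrays (left of the line) and the 4 SP arrays (right). PBS replicate 2 was below its group mean for all 8 genes, furthest for Cd274 at -1.49, and SP replicate 3 was below it for 7, furthest for Pdcd1lg2 at -0.91.

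The 2 genes with the highest rises, Cd274 and Pdcd1lg2, lie near each other on chromosome 19 in the same orientation, at 29362107 to 29388095 and 29410919 to 29472927 of GRCm38.p6. The stretch of 250 bases before to 50 bases after a RefSeq transcript start is shown for both because they rose by like amounts. Capitals mark the only match to a searched motif.
Cd274, chr19:29367188-29367487 (plus strand): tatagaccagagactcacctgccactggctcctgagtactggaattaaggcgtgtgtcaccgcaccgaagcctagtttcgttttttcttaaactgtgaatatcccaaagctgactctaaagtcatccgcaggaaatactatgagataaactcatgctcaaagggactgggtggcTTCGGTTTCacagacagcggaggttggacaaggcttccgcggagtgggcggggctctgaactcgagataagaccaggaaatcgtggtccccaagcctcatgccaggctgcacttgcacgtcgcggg
Pdcd1lg2, chr19:29410669-29410968 (plus strand): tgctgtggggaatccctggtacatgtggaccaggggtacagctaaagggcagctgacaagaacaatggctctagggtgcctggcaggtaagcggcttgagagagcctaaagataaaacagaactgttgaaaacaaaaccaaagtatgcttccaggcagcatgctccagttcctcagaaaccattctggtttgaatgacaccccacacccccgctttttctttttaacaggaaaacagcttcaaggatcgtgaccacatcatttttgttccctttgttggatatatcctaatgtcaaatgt
A set of 3 motifs was searched on both strands of such windows, which RefSeq gave for 6 of the 9 genes (Cd80, Icosl, Cd274, Pdcd1lg2, Cd276 and Havcr2). The interferon-sequence type GAAANNGAA was held by 8.56% of 32851 promoters, the gamma-activated type TTCNNNGAA by 8.30% and the NF-kB type GGNNTTTCC by 5.82%. The Cd274 window held the interferon-sequence type, read as TTCGGTTTC on the plus strand from position -76 relative to the start. The Cd276 window held the NF-kB type, GGCTTTTCC from position -146, and no match overlapped another. The windows of Pdcd1lg2, Icosl, Cd80 and Havcr2 held none of the 3 patterns. GC content was 52.67% in the Cd274 window and 46.0% in that of Pdcd1lg2.

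Cd274 (row NM_021893) encodes PD-L1. Its log2 values were 10.31, 7.96, 9.75 and 9.78 in PBS replicates 1 to 4 and 13.34, 13.38, 13.17 and 13.20 in SP replicates 1 to 4. The SP arrays were close together, the PBS arrays spread widely with replicate 2 lowest, and the groups were 2.86 apart at their nearest. The mean went from 9.45 ± 1.02 to 13.27 ± 0.11 (SD, n = 4 each), a difference of 3.82 ± 0.44 (SE; 95% interval 2.81 to 4.83; limma adjusted p = 0.00026). Without PBS replicate 2 the difference was 3.33.

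Pdcd1lg2 (NM_021396) encodes PD-L2, the other ligand of PD-1. It measured 5.21, 5.0, 5.47 and 5.64 in PBS and 9.50, 9.78, 8.23 and 9.08 in SP. The PBS arrays were just above the range of 3 Y-linked genes, 4.33 to 4.90, which served as a measure of background, so the PBS level was close to the floor of the array. SP replicate 3 was the low SP array, still 2.60 above the highest PBS array. The difference was 3.82 ± 0.32 (SE; 95% interval 3.09 to 4.54; limma adjusted p = 5.01e-05). Without SP replicate 3 it was 4.12.

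Both PD-1 ligands thus differed by 3.82 log2 units, and the balance between them was compared within each array, where a shift of the whole array cancels. Pdcd1lg2 in PBS was near the floor of the array and Cd274 in SP was bright, and either end of the scale can compress a change, so the ratio is given as a description of the deposited values. Cd274 minus Pdcd1lg2 was 5.10, 2.96, 4.27 and 4.14 in PBS and 3.85, 3.60, 4.94 and 4.11 in SP. The group means were 4.12 ± 0.88 and 4.13 ± 0.58 (SD, n = 4 each), and the change of 0.0067 gave p = 1 by exact permutation of the array labels (two-sided, 70 possible arrangements). A p of 1 does not show that the ratio stayed constant, since PBS arrays ran from 2.96 to 5.10 and the change was -0.38 without PBS replicate 2 and -0.26 without SP replicate 3.

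**Figure D2:**
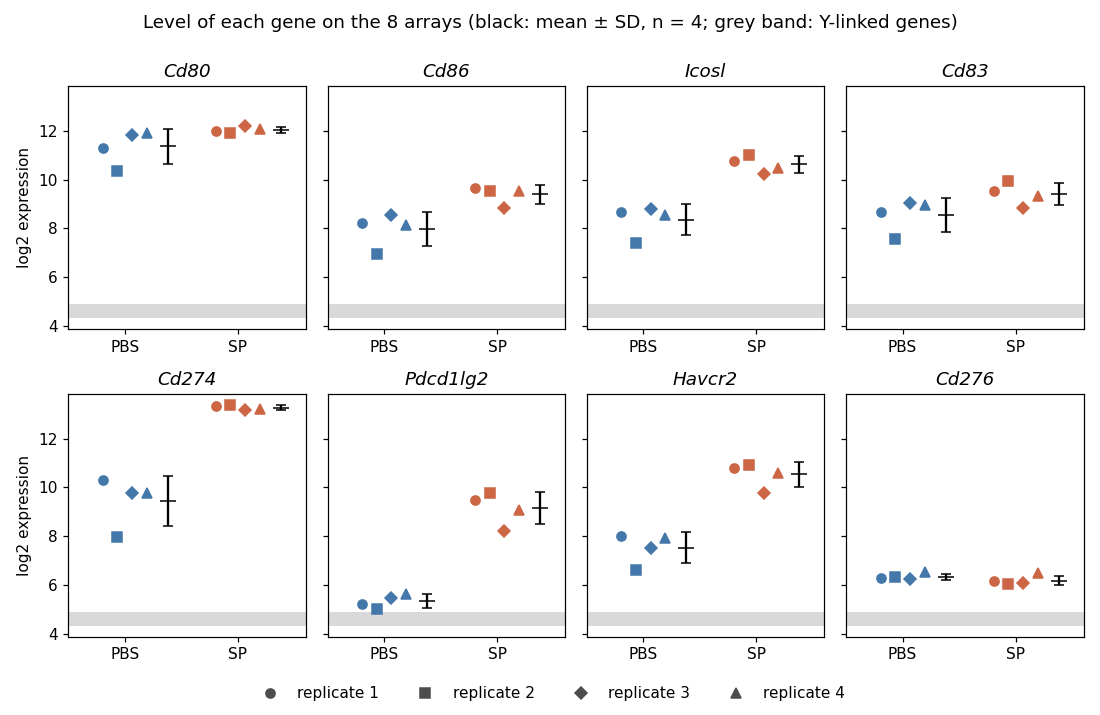
Log2 expression (y axis) of the 8 genes on each array, PBS in blue and SP in orange, with symbols for replicates 1 to 4 and the mean ± SD of each group in black. The SP arrays of Cd274 sit between 13.17 and 13.38 and those of PBS between 7.96 and 10.31, Pdcd1lg2 starts just above the grey band of Y-linked genes (4.33 to 4.90), and the groups of Cd80, Cd83 and Cd276 overlap.

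Among the costimulators, Cd80 (NM_009855) and Cd86 (NM_019388) encode the paired ligands of CD28 and CTLA-4. Cd86 measured 8.23, 6.96, 8.54 and 8.15 in PBS and 9.65, 9.55, 8.83 and 9.55 in SP. The groups did not overlap, but SP replicate 3 lay only 0.29 above the highest PBS array. The difference was 1.43 ± 0.34 (SE; 95% interval 0.64 to 2.21; limma adjusted p = 0.0105).

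Cd80 measured 11.31, 10.35, 11.84 and 11.92 in PBS and 11.99, 11.91, 12.20 and 12.09 in SP. Its SP arrays were close together (SD 0.12), and PBS replicate 2 stood apart from the other PBS arrays by -1.34. The difference of 0.69 ± 0.32 (SE) had an interval of -0.03 to 1.42 and an adjusted p of 0.10 in limma. It was 0.36 without PBS replicate 2, and 0.98 with arrays centred on their medians, where it passed the test (adjusted p = 0.022).

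Cd86 minus Cd80 was -3.08, -3.39, -3.30 and -3.77 in PBS and -2.34, -2.37, -3.37 and -2.54 in SP. In SP replicates 1, 2 and 4 the ratio was above every PBS array, and in SP replicate 3 it fell among them. The mean changed from -3.38 ± 0.29 to -2.65 ± 0.48 (SD, n = 4 each), by 0.73, with p = 0.086 in the two-sided exact permutation test, or 0.17 adjusted over the 2 ratios. The smallest p that 70 arrangements allow is 0.029. An unequal change of the pair was therefore not shown with the values as deposited. With another quantile normalization the change was 1.2 at that smallest p of the exact permutation.

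Icosl (NM_015790), which encodes the ligand of ICOS, measured 8.68, 7.40, 8.81 and 8.53 in PBS and 10.78, 11.00, 10.23 and 10.49 in SP. Every SP array was at least 1.42 above the highest PBS array. The difference was 2.27 ± 0.31 (SE; 95% interval 1.55 to 2.99; limma adjusted p = 0.00068).

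Cd83 (NM_001289915), a surface protein of mature dendritic cells that is also carried by activated lymphocytes and neutrophils, measured 8.69, 7.56, 9.03 and 8.94 in PBS and 9.53, 9.94, 8.85 and 9.31 in SP. SP replicate 3 lay below PBS replicates 3 and 4, so the groups overlapped. The difference of 0.85 ± 0.35 (SE; 95% interval 0.05 to 1.65) did not pass the test after adjustment (limma adjusted p = 0.078). This gene depended on both outlying arrays: it was 0.52 without PBS replicate 2 and 1.04 without SP replicate 3, neither passing, and 0.71 with both left out (adjusted p = 0.018). It also passed with centred arrays, at 1.13 (adjusted p = 0.015).

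Havcr2 (NM_134250) encodes TIM-3, an inhibitory receptor of exhausted T cells that myeloid cells carry too. It measured 7.99, 6.62, 7.52 and 7.94 in PBS and 10.80, 10.93, 9.78 and 10.59 in SP. The groups were 1.79 apart, with PBS replicate 2 and SP replicate 3 the low array of each. The difference was 3.01 ± 0.35 (SE; 95% interval 2.20 to 3.81; limma adjusted p = 0.00028).

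Cd276 (NM_133983) encodes B7-H3, which is common on non-haematopoietic cells. It measured 6.29, 6.32, 6.24 and 6.51 in PBS and 6.17, 6.02, 6.06 and 6.47 in SP, so that the groups overlapped. The difference of -0.16 ± 0.12 (SE; 95% interval -0.43 to 0.10; limma adjusted p = 0.26) did not pass the test and turned to 0.12 with centred arrays. The interval leaves no room for a 2-fold change in either direction on the deposited scale.

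**Figure D3:**
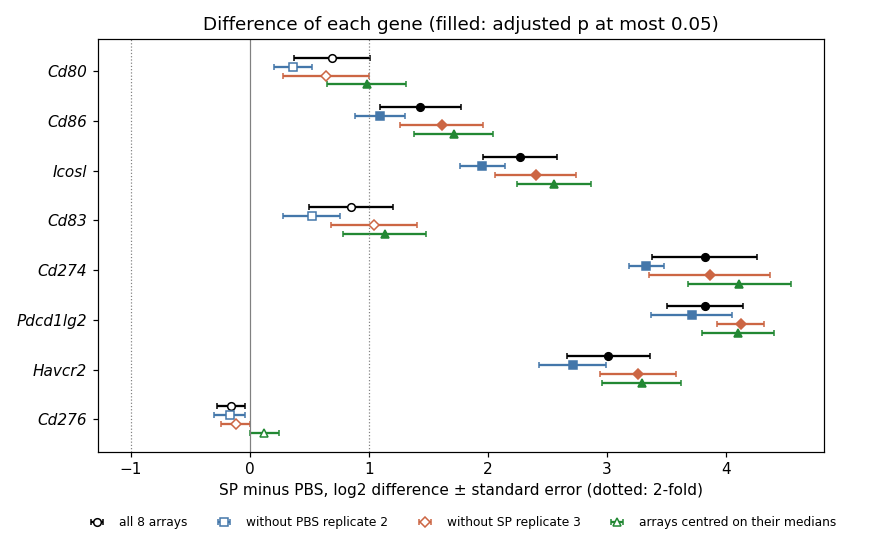
Difference of SP minus PBS on the log2 scale with its standard error for the 8 genes, with all 8 arrays (black), without PBS replicate 2 (blue), without SP replicate 3 (orange) and with arrays centred on their medians (green), where filled symbols passed an adjusted p of 0.05. Cd274, Pdcd1lg2, Havcr2, Icosl and Cd86 stayed past the dotted 2-fold line in all 4 settings, with Cd86 closest at 1.09 without PBS replicate 2.

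A further 52 genes of the pathway, in 6 lists, each had a row. Of these 18 were higher, 7 lower and 27 not called, and 11 were higher and 4 lower by at least 2-fold. Over all rows 21.5% were higher and 22.6% lower, or 6.37% and 11.3% by at least 2-fold. The counts per list below were not tested against these shares. With centred arrays 28 were higher and 4 lower, where 57.74% of all rows were called higher and 16.39% lower. Icos, Jak1, Lag3, Cd96 and Sirpa were among those that gained a call by centring, and Btla, Ceacam1 and Ifngr1 lost theirs.

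On the regulatory side, the list of the interferon gamma and NF-kB route to Cd274 had 7 of 12 genes higher and 2 lower, with a median difference of 0.71 against 0.10 over all rows. Jak2, the kinase coupled to the interferon gamma receptor, measured 10.25, 9.93, 10.52 and 10.49 in PBS and 12.15, 12.19, 11.91 and 11.90 in SP, a difference of 1.74 ± 0.15 (SE; limma adjusted p = 5.25e-05). Every SP array lay at least 1.38 above the highest PBS array. Irf1, an interferon-induced transcription factor, rose by 1.71. In the NF-kB family Nfkb1 rose by 1.45, Rel by 1.34 and Rela by 0.77. The 2 receptor chains moved apart, Ifngr2 rising by 0.65 while Ifngr1 fell by 0.57, though Ifngr1 was at -0.29 and not called with centred arrays (adjusted p = 0.11). Cmtm6 and Cmtm4 encode membrane proteins that keep PD-L1 from being degraded. Cmtm4 fell by 1.99 (adjusted p = 8.14e-05), and Cmtm6 differed by -0.52 without passing (adjusted p = 0.065), but was called lower in 5 of 17 alternatives, among them leaving out PBS replicate 2 (-0.68, adjusted p = 0.014).

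Of the T cell receptors of these ligands, 2 of 4 were higher, by less than 2-fold. Pdcd1, which encodes PD-1, rose by 0.49 from 4.56 ± 0.07 to 5.05 ± 0.08 (SD, n = 4 each; limma adjusted p = 0.0010), at levels within or just above the range of the Y-linked genes. The Y-linked genes themselves were higher in SP by 0.12 to 0.19, with 1 of 3 called, and what part of the Pdcd1 difference is a shift of that floor was not tested. Ctla4 rose by 0.53 (adjusted p = 0.042), a call lost in 8 of 16 alternatives. Cd28 differed by -0.06 and Icos by 0.21, neither passing, while Icos passed with centred arrays (0.49, adjusted p = 0.0097) and with array weights (0.34, adjusted p = 0.037).

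Other B7 and butyrophilin genes went both ways, with 2 of 7 higher and 2 lower. Beside 21.5% and 22.6% of all rows, these counts do not set the list apart. Vtcn1, which encodes the inhibitory ligand B7-H4, had the largest fall of all 52 genes. It measured 9.18, 9.84, 8.87 and 9.33 in PBS and 6.14, 6.23, 5.43 and 6.10 in SP, a difference of -3.33 (limma adjusted p = 2.65e-05), with no overlap. Vsir, which encodes the checkpoint protein VISTA, was among the bright genes at 12.30 in PBS and 12.34 in SP (adjusted p = 0.81). Btnl2, a butyrophilin-like gene, rose by 1.79, and Tnfrsf14, which encodes HVEM, the ligand of BTLA, by 1.64. Btla itself fell by 0.85 (adjusted p = 0.033), a call lost in 9 of 17 alternatives, among them leaving out PBS replicate 1 or 2 or SP replicate 3 or 4.

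Among TIM-3 and CD200R partners and relatives, 5 of 14 were higher and 1 lower. Lgals9, which encodes galectin-9, a ligand of TIM-3, rose by 0.95 (adjusted p = 0.016). Cd200, the ligand of CD200R1, differed by -0.46 without passing (adjusted p = 0.14). The relatives of Cd200r1 that had a row were higher: Cd200r4 measured 7.16, 6.59, 6.89 and 7.01 in PBS and 10.02, 9.83, 7.88 and 9.0 in SP, a difference of 2.27 (limma adjusted p = 0.0035). Cd200r2 rose by 1.84 and Cd200r3 by 0.64, the latter call lost in 6 of 16 alternatives. These genes are close relatives in 1 family, so probes may share signal between them. Cd200r1 itself had no row, so these rises give neither the level nor the action of that inhibitory receptor. SP replicate 3 differed from the mean of the other SP arrays by -1.74 for Cd200r4 and -1.32 for Cd200r2. Dok1, an adaptor of CD200R1 signalling, rose by 1.82, while Dok2 was at -0.03. Ceacam1, another TIM-3 partner, fell by 0.51, a call lost in 5 of 17 alternatives.

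In the nectin and SIRP axis 1 of 9 genes was higher and 2 lower. Nectin3 fell by 1.74 and Nectin2 by 1.44, both adhesion proteins that also bind lymphocyte receptors, and Cd47, the ligand of SIRP alpha, rose by 0.51, a call lost with another quantile normalization (0.26, adjusted p = 0.055). Of the antigen presentation partners, Cd40 alone of 6 was called. Cd40, the receptor through which T cells license antigen presenting cells, rose from 7.27 ± 0.39 to 9.92 ± 0.59 (SD, n = 4 each), by 2.65 (limma adjusted p = 0.00026), the largest rise of the 52 genes. The class II genes H2-Aa, H2-Ab1 and H2-Eb1 and their chaperone Cd74 differed by -0.28 to -0.44 and their regulator Ciita by 0.27, none passing. SP replicate 3 was the low SP array for all of these, at -1.20 to -1.72 from the mean of the others. For H2-Ab1 it was at 9.46, where the other SP arrays were at 11.14 to 11.21.

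**Figure D4:**
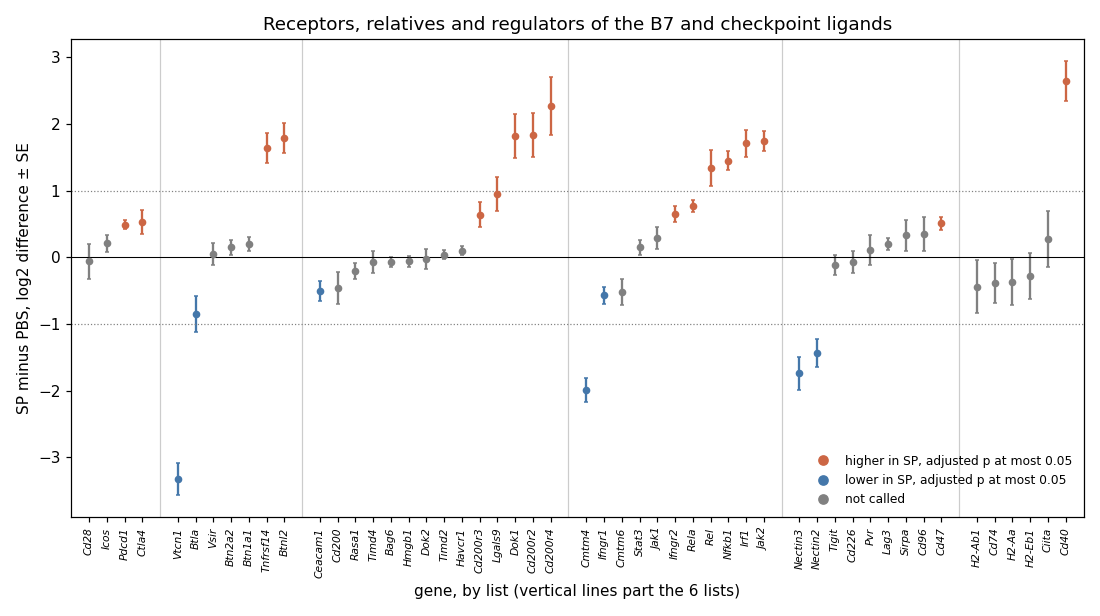
Difference of SP minus PBS on the log2 scale (y axis) with its standard error for 51 of the 52 pathway genes, sorted within 6 lists parted by vertical lines, in order: T cell receptors, other B7 and butyrophilin genes, TIM-3 and CD200R partners, the route to Cd274, nectin and SIRP genes, and antigen presentation partners. Orange marks the 17 plotted genes higher in SP, blue the 7 lower and grey the 27 not called, with Vtcn1 lowest at -3.33 and Cd40 highest at 2.65.

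In these bulk samples, fewer cells of a type and less RNA per cell cannot be told apart, and other cells of the lung also carry B7 genes. Neutrophil markers were well above the Y-linked range in both groups: the mean of 10 neutrophil genes was 12.08 to 12.41 in PBS and 11.72 to 12.72 in SP, with 0 called higher and 3 lower. The 12.72 was that of SP replicate 3, and the other SP arrays were at 11.72 to 11.96. The SP array highest for this list was thus the one lowest for 6 of the 8 B7 genes. Its high list mean came in large part from Camp and Ltf, 3.05 and 2.18 above the mean of the other SP arrays. The other neutrophil genes were 0.14 to 1.02 above it, except Csf3r at -0.18. The list mean is therefore not a measure of purity. Of the monocyte and macrophage markers 3 of 7 were higher and 0 lower, and the list mean was 8.24 to 9.08 in PBS and 8.36 to 9.86 in SP. Among these Adgre1, a surface protein of mouse macrophages, measured 9.83, 8.70, 10.08 and 10.01 in PBS and 11.36, 11.10, 10.14 and 11.10 in SP, a difference of 1.27 (limma adjusted p = 0.022). PBS replicate 2 and SP replicate 3 had the lowest monocyte and macrophage means of their groups, 8.24 and 8.36, as they had the lowest values for most of the B7 genes. This was not particular to that list. SP replicate 3 also had the lowest SP mean for the dendritic cell, alveolar macrophage, B cell and mast cell lists below. The same held for the epithelial, endothelial and fibroblast lists. PBS replicate 2 also had the lowest PBS mean for the neutrophil, alveolar macrophage and T cell lists. It had the highest for the mast cell, epithelial and endothelial lists. The part of any of these cells in the differences was not tested. Without PBS replicate 2 and SP replicate 3, 6 of the 8 genes were called higher, the additional one being Cd83.

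Dendritic cell markers were mixed by gene, with 1 of 7 higher and 2 lower. Their list mean was 5.97 to 6.46 in PBS and lower in SP, at 5.66 to 5.92, with no overlap. Flt3, at 4.34 to 4.94, lay at the level of the Y-linked genes, Xcr1, at 5.10 to 5.37, just above it, while Ccr7, which other leukocytes also carry, was at 9.15 in PBS and 8.43 in SP. Cd209a fell by 1.98, and Itgae rose by 1.10 (adjusted p = 0.017). Itgae encodes CD103, a protein that the study found higher in pneumonia on lung neutrophils by flow cytometry. Its rise is therefore not a sign of dendritic cells alone. Alveolar macrophage markers fell in 5 of 7 genes, from 9.01 to 9.73 in PBS to 7.54 to 8.42 in SP. B cell markers fell in 6 of 6, from 7.71 to 8.63 down to 5.83 to 6.97. T cell markers were higher in 2 of 6 and lower in 0, with list means of 5.36 to 6.01 in PBS and 5.64 to 6.74 in SP.

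Epithelial and endothelial markers were present in both groups and lower in SP. Epithelial genes fell in 5 of 5, from 11.58 to 12.11 down to 10.16 to 10.93, and endothelial genes in 5 of 6, from 10.71 to 11.68 down to 9.16 to 10.17. Fibroblast genes fell in 1 of 5, Dcn, with overlapping list means (8.11 to 9.06 in PBS, 7.25 to 9.34 in SP). Mast cell and basophil genes fell in 2 of 6 (6.07 to 6.28 and 5.87 to 6.00), Kit by 0.75 and Gata2 by 1.06. Fcer1a, Ms4a2, Cpa3 and Mcpt8 were not called. Their group means were 4.27 to 4.89, in or next to the Y-linked range, so the lower list mean rests on Kit and Gata2. Vtcn1, Nectin2, Nectin3 and Cmtm4 fell alongside these lists, and the part of other cells in those falls was not tested.

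**Figure D5:**
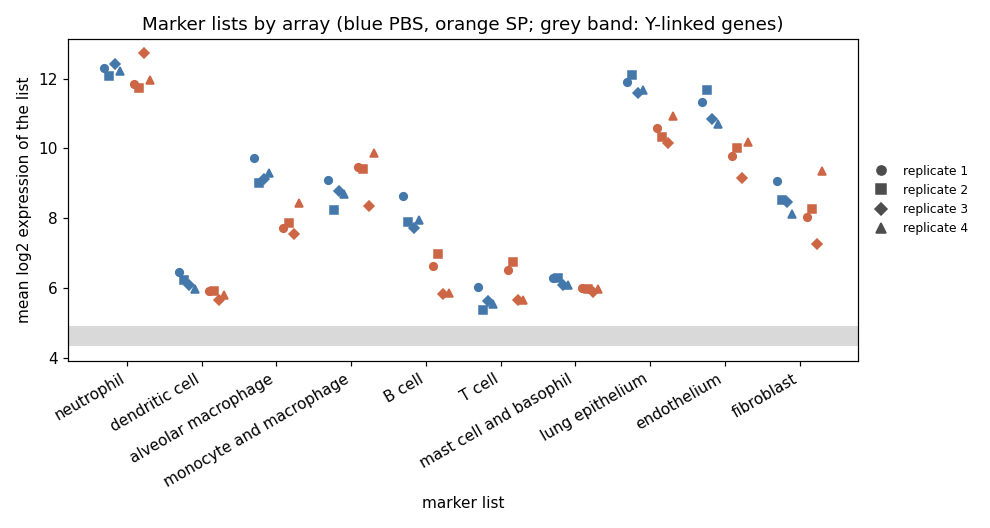
Mean log2 expression (y axis) of 10 lists of cell type markers on each array, PBS in blue and SP in orange, with symbols for replicates 1 to 4 and the Y-linked range of 4.33 to 4.90 as a grey band. Neutrophil markers are near 12 in both groups, highest on SP replicate 3 at 12.72. The dendritic cell, alveolar macrophage, B cell, mast cell and basophil, epithelial and endothelial lists are lower in SP with no overlap. The gap is small for the dendritic cell list (5.97 in PBS against 5.92 in SP at the nearest). It is also small for the mast cell and basophil list (6.07 against 6.00). The monocyte and macrophage list overlaps between groups, with SP replicate 3 as the low SP array at 8.36.

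The genes most like each of the 5 risen members were listed by Pearson's r over the 8 arrays, a description that rests mostly on the difference between the groups. Cd274 was followed most closely by Cxcl10 (r = 0.998), a chemokine induced by interferon, Gm4070 (0.996) and Gbp2 (0.995), an interferon-induced guanylate-binding protein. Icosl was followed by Lipa, Psmb9 and Atp6v1d at 0.995 to 0.996, where Psmb9 is a subunit of the immunoproteasome. Havcr2 was followed by Scimp (0.993), P2ry6 (0.991) and Psme1 (0.991), Pdcd1lg2 by AI413582, Wdr81 and Nek6 (0.997 each), and Cd86 by Nubp2 (0.992), Galns (0.987) and Unc93b1 (0.986). An r of at least 0.95 was reached by 4.95% of 19835 other symbols for Pdcd1lg2, 3.60% for Icosl, 3.26% for Havcr2, 3.17% for Cd274 and 0.731% for Cd86. Of the deviations from the group means, which leave that difference out, those of Icosl correlated with those of Cd83 at 0.97 and of Cd86 at 0.95, and those of Cd274 with those of Pdcd1lg2 at only 0.32, over the same 8 arrays. PBS replicate 2 had the largest deviation of Icosl (-0.95), Cd83 (-0.99) and Cd86 (-1.01). The high correlations of these genes therefore rest in large part on that array.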

How the data were processed

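Log2 values of 8 arrays (4 PBS, 4 SP) were taken as the authors deposited them, after robust multi-array averaging that corrected for background and for the GC content and sequence of each probe, quantile-normalized the arrays and summarized probes by median polish. Per the methods, probesets were consolidated by Ensembl, RefSeq or GenBank identifiers from the manufacturer's annotation. The genome build is not given in the sources used here. Such values are relative within an array and can be compressed for bright genes. Row accessions were matched without versions to RefSeq genes of GRCm38.p6, which named 19915 of 24625 rows (80.9%), and promoters came from RefSeq of the same assembly. Rows were compared with limma 3.58.1 (R 4.3.3; lmFit and eBayes, two-sided, no covariate), with Benjamini-Hochberg adjustment over all rows. A call needed an adjusted p of at most 0.05, and a 2-fold difference is 1 log2 unit. The study's methods used one-way ANOVA, here called the methods' t-test and run as an alternative. The 2 within-array ratios were compared by exact permutation over arrays, and figures and ratios were made with Python 3.11.15. The fit was tested on simulated data.

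The members and the gene lists were chosen with earlier results of these data known. Named genes were the 9 members, pathway genes of the lists, marker genes beside a result, and the 3 symbols most correlated with each member called at 2-fold. Pathway genes that were not called at 2-fold were named after their values were seen. For 1 gene of the pathway lists, included in the counts, no values are reported here. Alternatives were the methods' t-test, an intensity trend with a robust prior, the replicate block, array weights, centred arrays, another quantile normalization, leaving out dim rows, 1 row per symbol and leaving out each array. Leaving out PBS replicate 2 and SP replicate 3 together was added after seeing the data. The number of arrays limits the precision. The microRNA arrays of the study were not used here.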

Additional observations from a re-analysis of the deposited data

Results flagged for a closer look

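Dixon's test was run on 70 sets of 4 arrays, each the PBS or SP values of 1 gene, 1 ratio or 1 marker list mean. In 5 sets, all of single genes, the gap of 1 array to its nearest neighbour exceeded the 95% critical value. The gap was taken as a share of the range of the set, and chance gives about 1 in 20. Cd86 had 1 such array among its SP values, replicate 3 at 8.83 against 9.55 to 9.65 (ratio 0.868). Vtcn1 was low on the same array at 5.43 against 6.10 to 6.23 (0.842), and Nfkb1 was high there at 11.94 against 11.38 to 11.44 (0.888). In PBS replicate 2, Rel was low at 9.86 against 10.94 to 11.13 (0.852) and Nectin2 high at 8.92 against 8.51 to 8.55 (0.902).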

How the results depend on the processing

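Over 17 alternatives for each of the 8 genes, 130 of 136 values kept their direction and their side of the threshold, 4 gained a call, 2 changed sign and 0 lost a call. The calls gained were Cd80 with centred arrays (0.98) and Cd83 with array weights (0.78), centred arrays (1.13) or both outlying arrays left out (0.71). Cd276 changed sign with centred arrays (0.12) and with another quantile normalization (0.21). The count of genes called higher ran from 5 to 7, the latter with centred arrays, and was 5 whichever single array was left out. Leaving out 1 array gave differences of 3.33 to 4.11 for Cd274, 3.61 to 4.12 for Pdcd1lg2, 2.71 to 3.26 for Havcr2, 1.95 to 2.42 for Icosl and 1.09 to 1.62 for Cd86. With centred arrays 28 pathway genes were higher and 4 lower, and 77.89% of calls over all rows were higher against 48.86% as deposited, as an added constant moves every difference. Cd86 minus Cd80 changed by 1.2 with another quantile normalization, where the exact permutation p was 0.029, and by 0.60 to 0.97 with 1 array left out. Cd274 minus Pdcd1lg2 changed by -0.051 with that normalization and by -0.38 to 0.33 with 1 array left out. The cause of these changes was not tested. The labels do not say whether replicate numbers pair the samples. Deviations of same-numbered arrays correlated at -0.27 to 0.35, and so few arrays cannot decide it. The replicate block left 5 genes called higher, with Cd80 at 0.69 (adjusted p = 0.070) and Cd83 at 0.85 (adjusted p = 0.15). Levels near the Y-linked range, as for Pdcd1lg2 in PBS and Pdcd1, limit how small a level can be read.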
